A study of Mus musculus with 12 samples.

Results

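Regulator of G protein signalling (RGS) genes were described in mouse bile duct organoids, with Rgs16 as the gene of departure. The set held 9 listed genes of the 53700 gene identifiers in the count table: Rgs16, Rgs2, Rgs3, Rgs10, Rgs12, Rgs14, Rgs17, Rgs19 and Rgs20. Rgs16 was taken up because of its level in mutant against wild-type cultures in these same libraries, so its difference between genotypes is given as a description, and no support is taken from any test of it. The other 8 were listed beside it as members of the gene family. Of the 9, 8 passed the filter on low counts, and Rgs14 did not.

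RNA was sequenced from 12 libraries of intrahepatic cholangiocyte organoids, which are hollow balls of bile duct epithelium that grow from liver ducts in a matrix gel. The organoids came from 3 mice homozygous for the Ndr allele of Jag1 (Ndr; mice 1219, 1220 and 1224) and from 3 mice wild type for Jag1 (WT; mice 1221, 1223 and 1225). From each liver, 1 culture was derived from the hilum, where the large ducts leave the organ, and 1 from its periphery. The 4 groups were thus Ndr hilar, WT hilar, Ndr peripheral and WT peripheral, with 3 libraries each, all untreated and all at passage 5; the age of the mice is not given in the labels. Jag1 encodes a Notch ligand, and Ndr is a missense allele in every cell of the animal, so the level of Jag1 mRNA does not check the genotype: Jag1 averaged 141 CPM in Ndr hilar, 120 CPM in WT hilar, 103 CPM in Ndr peripheral and 128 CPM in WT peripheral organoids (counts per 1000000 counts, n = 3 each).

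G protein coupled receptors switch on heterotrimeric G proteins by loading GTP onto the alpha subunit. RGS proteins bind the active alpha subunit and speed up its hydrolysis of GTP, which shortens the signal. The family is divided by sequence into the R4, R7, R12 and RZ subfamilies. Bile duct cells use such receptors to set their secretion: the secretin receptor acts through the stimulatory subunit and cyclic AMP, somatostatin receptors through inhibitory subunits, and muscarinic and purinergic receptors through the Gq subunits and calcium.

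The libraries held 6708822 to 16030880 counts, and CPM below are on library sizes scaled by edgeR. Of 15 markers of bile duct cells, 14 were tested, all but Sctr, with a summed level of 11472 to 20947 CPM, so the label of the cells held. Hepatocyte markers summed to 3.49 to 45.9 CPM, with Alb at up to 40.9 CPM, and endothelial markers to 0 to 0.618 CPM. Immune markers summed to 10.1 to 40.3 CPM, with Csf1r at 5.87 to 37.0 CPM and Cd68 at 1.45 to 10.7 CPM. The immune markers Adgre1, Ms4a1 and Nkg7 and the endothelial markers Kdr and Emcn were at 0 in every library. Proliferation genes summed to 418 to 791 CPM in Ndr hilar libraries and to 1263 to 2319 CPM in Ndr peripheral libraries. In WT hilar libraries their sum was 516 to 3313 CPM, with mouse 1225 at the top, and in WT peripheral libraries it was 1079 to 1376 CPM. All 20 proliferation genes were lower in Ndr than in WT hilar organoids (median log2 difference -1.78) and higher in Ndr than in WT peripheral organoids (0.45), with 0 called in either. The part of proliferation in the differences between regions and between genotypes given below was not tested. In bulk RNA, fewer cells of a type and less RNA per cell cannot be told apart.

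Rgs16 and Rgs2 belong to the R4 subfamily of small RGS proteins, and both lie on chromosome 1, which holds 11 of the 21 RGS genes in the mouse annotation used here. Rgs2 is known for its preference for Gq subunits, whereas Rgs16 acts on Gi and Gq subunits. The 250 bases before the start of each gene are shown (RefSeq, GRCm38.p6). Rgs16 is shown as the gene of departure. Rgs2 is shown because its hilar libraries lay above its peripheral ones in Ndr mice without overlap, as in 7.49% of all genes. That reason does not single out Rgs2: Rgs3 separated the same regions the other way (7.93% of all genes). Rgs10 separated the genotypes in hilar organoids (4.57%), and neither sequence is shown. Capitals mark the CCAAT box, CCAAT on either strand, which was found 68 bases before the start in Rgs16 and 94 bases before it in Rgs2.
Rgs16 chr1:153740103-153740352, plus strand: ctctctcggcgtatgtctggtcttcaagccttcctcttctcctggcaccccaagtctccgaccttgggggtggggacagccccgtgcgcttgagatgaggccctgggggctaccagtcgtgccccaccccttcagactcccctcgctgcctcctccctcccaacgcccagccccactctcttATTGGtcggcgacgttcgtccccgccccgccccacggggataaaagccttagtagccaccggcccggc
Rgs2 chr1:144004150-144004399, minus strand: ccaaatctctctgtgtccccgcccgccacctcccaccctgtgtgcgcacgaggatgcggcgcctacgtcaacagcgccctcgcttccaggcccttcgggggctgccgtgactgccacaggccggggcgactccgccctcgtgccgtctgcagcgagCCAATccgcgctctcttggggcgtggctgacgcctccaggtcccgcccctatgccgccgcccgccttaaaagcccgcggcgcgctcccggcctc

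Motifs were searched on both strands of the 300 bases from 250 before to 50 after each start. The core bound by the Notch effector RBPJ, TGGGAA, was in neither window, while 25.6% of all 32851 promoter windows held it. The CCAAT box was in 37.4% of all windows. The AP-1 motif TGANTCA (7.81% of windows), the CRE motif TGACGTCA (1.79%) and the E-box CACGTG (7.15%) were in neither. Over the 11 windows of the 7 members with a promoter sequence, the RBPJ core was in 4, of Rgs3, Rgs12 and Rgs19; Rgs14 and Rgs20 had none to search. These matches describe the letters of the windows and say nothing on binding.

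Rgs16 was lower in Ndr than in WT organoids in both regions, the contrast on which it was chosen. In hilar organoids it stood at 22.4, 10.1 and 7.15 CPM in Ndr mice 1219, 1220 and 1224, against 64.2, 159 and 27.8 CPM in WT mice 1221, 1223 and 1225. In peripheral organoids it stood at 7.44, 8.77 and 9.42 CPM in the same Ndr mice, against 83.7, 41.9 and 112 CPM in the same WT mice. All 6 Ndr libraries lay below all 6 WT libraries, with the gap between the highest Ndr and the lowest WT library small, both of them hilar. Of all genes, 0.127% had every Ndr library below every WT library; Rgs16 was chosen for this contrast, so nothing is read from its place among them.

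**Figure D1:**
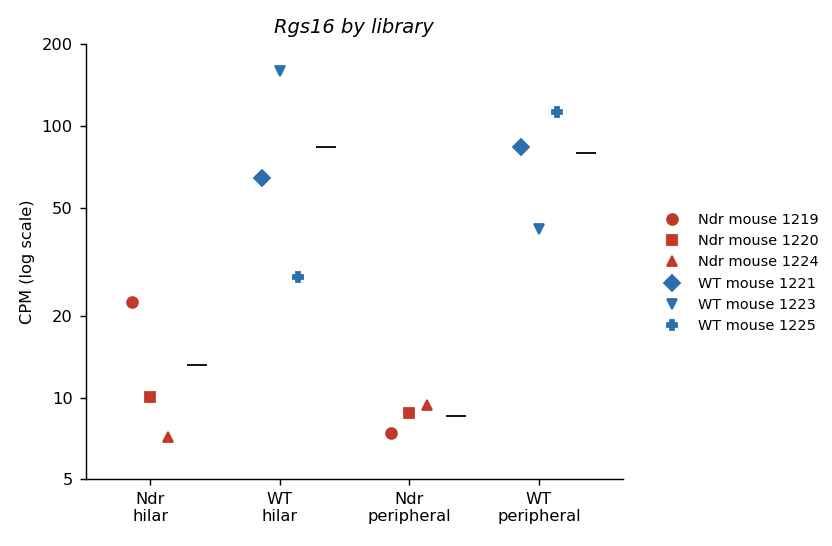
Rgs16 in each of the 12 libraries, as CPM on a log axis, by genotype and region (red, Ndr; blue, WT; the symbol gives the mouse; black bars, group means of 3). The Ndr libraries sit between 7.15 and 22.4 CPM and the WT libraries between 27.8 and 159 CPM.

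Group means of Rgs16 were 13.2 ± 8.12 CPM in Ndr hilar and 83.8 ± 68.0 CPM in WT hilar organoids, and 8.54 ± 1.01 CPM in Ndr peripheral and 79.2 ± 35.3 CPM in WT peripheral organoids (SD, n = 3 each). With the pair of libraries of a mouse summed, Ndr mice had 14.9, 9.10 and 8.52 CPM, against 73.2, 93.2 and 74.5 CPM in WT mice. The summed WT mice were close to each other although their single cultures were not: hilar Rgs16 was above peripheral in mouse 1223 and below it in mice 1221 and 1225. The log2 difference, Ndr minus WT, was -2.89 (SE 0.252) over mouse totals, -2.65 (SE 0.629) in hilar and -3.21 (SE 0.645) in peripheral organoids. Without the hilar library of WT mouse 1223, the highest of all, the hilar difference was -1.80.

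The organoids were derived on 4 days of the same June, and only day 21 gave cultures of both genotypes, from Ndr mouse 1224 and WT mouse 1225. Within that day Rgs16 was 7.15 CPM in the Ndr hilar culture against 27.8 CPM in the WT hilar culture, a log2 difference of -1.89. In the peripheral cultures of that day it was 9.42 CPM in Ndr against 112 CPM in WT, a log2 difference of -3.50. Each of these differences rests on 1 library on each side. As every Ndr library lay below every WT library, both had to point the same way as over all mice. They are thus no separate evidence, and on the other days derivation date and genotype cannot be told apart. Gm28513, which overlaps Rgs16 on the opposite strand, had 1 count in all libraries together.

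The region of the liver was not used to choose Rgs16. Hilar Rgs16 was above peripheral Rgs16 in 2 of 3 Ndr mice and in 1 of 3 WT mice. The log2 difference, hilar minus peripheral, was 0.63 (SE 0.610) in Ndr organoids and 0.08 (SE 0.586) in WT organoids, with edgeR adjusted p-values of 0.797 and 1. The difference between these region effects was 0.56 (SE 0.844, edgeR adjusted p = 0.995), so a difference of Rgs16 by region was not detected and neither was a difference in its region effect by genotype. The SE of the interaction is larger than its value and leaves room for a difference in either direction. Without the hilar library of WT mouse 1223 the region effect in WT organoids was -0.78, and without its peripheral library it was -0.22.

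In Ndr mice, Rgs2 had nearly the same level in all hilar cultures and lower, more variable levels in the peripheral ones. It stood at 11.6, 12.02 and 12.5 CPM in Ndr hilar organoids of mice 1219, 1220 and 1224, against 5.37, 2.07 and 10.8 CPM in their peripheral organoids. In WT mice 1221, 1223 and 1225 it stood at 6.59, 13.6 and 6.15 CPM in hilar organoids, against 16.9, 12.3 and 6.68 CPM in peripheral organoids. The Ndr regions did not overlap and the WT regions did. Of all genes, 7.49% had every Ndr hilar library above every Ndr peripheral library, and 12.8% were higher in the hilar culture of each of the 3 Ndr mice.

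The log2 difference of Rgs2, hilar minus peripheral, was 0.98 (SE 0.544, edgeR adjusted p = 0.575) in Ndr and -0.46 (SE 0.539, edgeR adjusted p = 1) in WT organoids. Their difference was 1.44 (SE 0.765, edgeR adjusted p = 0.994), which missed the threshold of 0.05. The Ndr region effect was 1.69 without the peripheral library of mouse 1224 and 0.59 without that of mouse 1220, and the interaction was 2.15 without the first of these libraries and 1.03 without the second. Between genotypes, Rgs2 differed by a log2 of 0.46 (SE 0.540) in hilar and -0.98 (SE 0.543) in peripheral organoids, Ndr minus WT, with overlapping libraries in both regions. The peripheral sign was not stable. Within derivation day 21, Ndr mouse 1224 minus WT mouse 1225, it was 0.97 in hilar and 0.65 in peripheral cultures, each from 1 library on each side.

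Rgs3, an R4 member that also acts on Gi and Gq subunits, showed the opposite order of regions in Ndr mice. It stood at 8.90, 4.70 and 10.1 CPM in Ndr hilar organoids of mice 1219, 1220 and 1224, against 18.3, 11.0 and 14.5 CPM in their peripheral organoids. WT hilar organoids of mice 1221, 1223 and 1225 had 11.0, 8.03 and 21.7 CPM, against 11.1, 10.2 and 14.6 CPM in WT peripheral organoids. Every Ndr hilar library lay below every Ndr peripheral library, as in 7.93% of all genes, and the WT regions overlapped. The log2 difference, hilar minus peripheral, was -0.88 (SE 0.404, edgeR adjusted p = 0.487) in Ndr and 0.18 (SE 0.399, edgeR adjusted p = 1) in WT organoids. Over both genotypes the hilar culture had less Rgs3 than the peripheral one in 5 of 6 mice, and at least 5 of 6 mice did so in 12.6% of all genes.

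Of the R12 subfamily, Rgs10, a short protein that acts on Gi subunits, stood at 10.9, 7.05 and 5.62 CPM in Ndr hilar organoids of mice 1219, 1220 and 1224, against 5.31, 4.17 and 5.02 CPM in WT hilar organoids of mice 1221, 1223 and 1225. In peripheral organoids it stood at 4.34, 3.77 and 5.95 CPM in Ndr mice, against 4.54, 3.23 and 3.07 CPM in WT mice. The hilar libraries of the genotypes did not overlap and the peripheral ones did; of all genes, 4.57% had every Ndr hilar library above every WT hilar library. The log2 difference, Ndr minus WT, was 0.70 (SE 0.342, edgeR adjusted p = 0.750) in hilar and 0.37 (SE 0.344, edgeR adjusted p = 1) in peripheral organoids. The hilar value was 0.38 without the hilar library of mouse 1219.

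Hilar Rgs10 was above peripheral Rgs10 in 5 of 6 mice, as in at least 5 of 6 mice for 11.3% of all genes. The log2 difference over both genotypes, hilar minus peripheral, was 0.58 (SE 0.243). Its unadjusted p of 0.0345 was the only one under 0.05 among the members outside the genotype comparisons of Rgs16, and its edgeR adjusted p was 0.797.

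Rgs12 is a large R12 protein with further domains that bind small G proteins and inactive alpha subunits. Its levels ranged from 19.4 to 27.4 CPM in Ndr hilar, 21.3 to 36.5 CPM in WT hilar, 16.7 to 48.3 CPM in Ndr peripheral and 22.2 to 33.6 CPM in WT peripheral organoids. All 4 groups overlapped, and the highest value was the peripheral culture of Ndr mouse 1219. Rgs14, built like Rgs12, had 6 counts in all, in 5 of the 12 libraries, with a highest level of 0.212 CPM, and did not pass the filter. Fitted without that filter, its log2 difference was 0.12 (SE 1.63, edgeR adjusted p = 1) for Ndr minus WT in hilar organoids, and such errors say little.

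The RZ subfamily, known for its action on Gz and Gi subunits, was fully represented. Rgs19 varied least of the members for its level. It averaged 32.9 ± 7.73 CPM in Ndr hilar and 24.6 ± 7.02 CPM in WT hilar organoids, and 23.7 ± 7.02 CPM in Ndr peripheral and 24.2 ± 0.768 CPM in WT peripheral organoids (SD, n = 3 each). Its hilar culture was above its peripheral culture in 3 of 3 Ndr mice and 2 of 3 WT mice. Of all genes, 12.8% were higher in the hilar culture of all 3 Ndr mice and 11.3% in at least 5 of 6 mice. The log2 difference of Rgs19, hilar minus peripheral, was 0.47 (SE 0.283, edgeR adjusted p = 0.606) in Ndr and 0.03 (SE 0.283, edgeR adjusted p = 1) in WT organoids.

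Rgs17 was nearly equal in both cultures of Ndr mouse 1219 and higher in the hilar culture of the other Ndr mice. Mouse 1219 had 35.4 CPM in its hilar and 35.8 CPM in its peripheral culture. Mice 1220 and 1224 had 16.1 and 20.04 CPM in hilar cultures, against 3.30 and 2.38 CPM in peripheral cultures. WT mice 1221, 1223 and 1225 had 9.45, 30.9 and 11.4 CPM in hilar cultures, against 5.71, 17.3 and 20.5 CPM in peripheral cultures.

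Because mouse 1219 stood apart in its peripheral culture, the region effect of Rgs17 in Ndr organoids depended on it in the fit without pairing by mouse. There the log2 difference, hilar minus peripheral, was 0.79 (SE 0.907) with all 3 mice and 3.06 without the peripheral library of mouse 1219. With the mouse as a block and all 3 mice it was 1.75 (SE 0.657, edgeR adjusted p = 0.552). Between genotypes the log2 difference over mouse totals was 0.16 (SE 0.627), and -0.80 (SE 0.455, edgeR adjusted p = 0.9998) without mouse 1219.

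Rgs20 was low in 2 of the 3 Ndr mice in both regions and high in the third. Mouse 1219 had 5.42 CPM in its hilar and 9.09 CPM in its peripheral culture, while mice 1220 and 1224 had 0.914 and 0.766 CPM in hilar and 0.283 and 0.640 CPM in peripheral cultures. WT mice 1221, 1223 and 1225 had 3.23, 4.79 and 6.15 CPM in hilar cultures and 4.29, 2.03 and 12.1 CPM in peripheral cultures. Mouse 1219 thus lay within the range of WT mice, and the other Ndr cultures lay below all WT cultures. This division of the Ndr mice was made after their values were seen. With all Ndr mice, the genotypes overlapped in both regions.

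Over mouse totals Rgs20 stood at 7.06, 0.535 and 0.697 CPM in Ndr mice 1219, 1220 and 1224, against 3.71, 3.24 and 9.50 CPM in WT mice 1221, 1223 and 1225. The log2 difference, Ndr minus WT, was -0.98 (SE 0.997, edgeR adjusted p = 0.919), and without mouse 1219 it was -3.14 (SE 0.652, edgeR adjusted p = 0.579). Within derivation day 21, Rgs20 differed by a log2 of -2.39 in hilar and -3.46 in peripheral cultures, Ndr mouse 1224 minus WT mouse 1225. Each of these rests on 1 library on each side. As both cultures of mouse 1224 lay below all WT cultures, both differences had to be negative, and they are no separate evidence. Rgs20 overlaps Atp6v1h, a proton pump subunit gene on the opposite strand, and the strand setting of the counting is not given in the sources used here, so reads of the pair cannot be told apart by strand. Atp6v1h ran from 82.1 to 139 CPM over the 12 libraries; in the peripheral culture of mouse 1220, which had the lowest Rgs20 level of 0.283 CPM, Atp6v1h stood at 105 CPM.

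**Figure D2:**
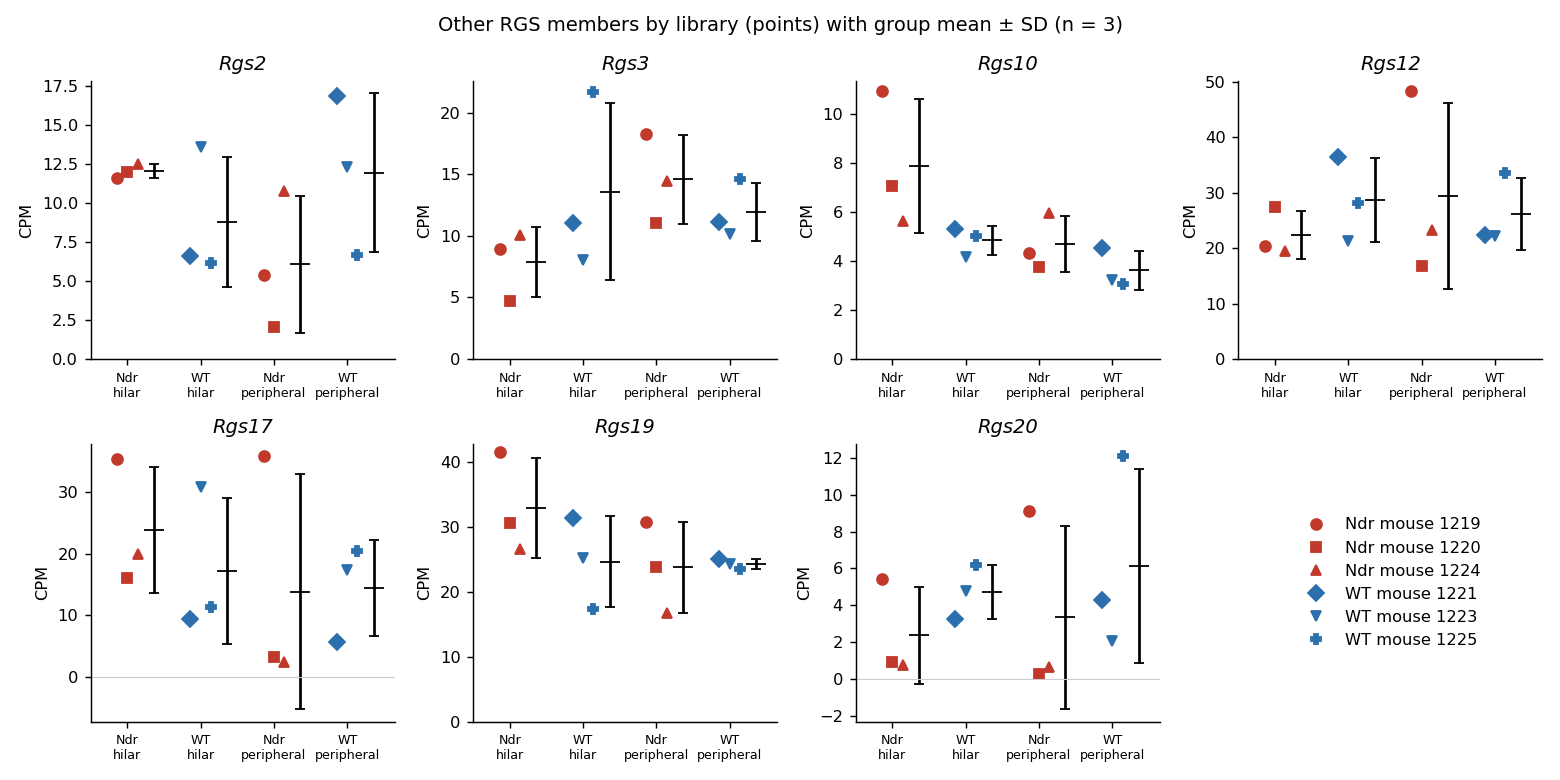
The 7 other members that passed the filter on low counts, in each of the 12 libraries, as CPM by genotype and region (red, Ndr; blue, WT; the symbol gives the mouse; bars, mean ± SD of 3). Rgs2 and Rgs3 separate the regions in Ndr organoids, Rgs10 separates the genotypes in hilar organoids, and mouse 1219 (red circles) stands above mice 1220 and 1224 in Rgs17 and Rgs20.

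Mouse 1219 also stood apart for Rgs4 and Rgs5, R4 genes that are neighbours on chromosome 1 and no members of the list. Rgs4 had 22.5 CPM in the total of mouse 1219, 0.857 CPM in that of mouse 1220 and 0.214 CPM in that of mouse 1224, against 5.54, 2.23 and 1.92 CPM in WT mice 1221, 1223 and 1225. Rgs5, known as a marker of pericytes, had 3.63, 0.107 and 0.0536 CPM in the same Ndr mice, against 0.393, 1.62 and 0.758 CPM in the same WT mice. For both genes the Ndr mice spanned a wider range than the WT mice, with mouse 1219 above them and mice 1220 and 1224 below them. The log2 difference, Ndr minus WT, was 1.27 (SE 1.41) for Rgs4 and 0.50 (SE 1.33) for Rgs5 with all mice, and -2.59 (SE 0.804) and -3.39 (SE 0.948) without mouse 1219.

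The markers of fibroblasts, stellate cells and pericytes summed to 5.51 CPM in the hilar and 30.0 CPM in the peripheral culture of mouse 1219, within the 1.83 to 30.4 CPM of all libraries. Most of that sum was Notch3, and of the 12 markers Dcn, Lum and Cspg4 were at 0 in every library, with Pdgfrb at no more than 0.252 CPM. The part of these markers in the levels of Rgs4 and Rgs5 was not tested.

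Across the family, 11 of the 21 RGS genes were tested, 5 had counts but did not pass the filter (Rgs7, Rgs8, Rgs9, Rgs13 and Rgs14) and 5 had no count in any library (Rgs1, Rgs6, Rgs18, Rgs21 and Rgs22). Per kilobase of exon, and over all 12 libraries, Rgs16 averaged 19.7 ± 21.1 CPM per kb and Rgs19 averaged 11.8 ± 2.99 CPM per kb (SD, n = 12). These means mix genotypes, and the order of the pair divided by genotype. Rgs16 was chosen on that contrast, so the order is a description and nothing is read from it. In Ndr libraries Rgs16 stood at 3.06 to 9.59 and Rgs19 at 7.47 to 18.6 CPM per kb, with Rgs19 above Rgs16 in all 6. In WT libraries Rgs16 stood at 11.9 to 68.2 and Rgs19 at 7.77 to 14.1 CPM per kb, with Rgs16 above Rgs19 in all 6. Next came Rgs12 at 3.14 ± 1.06, Rgs10 at 3.07 ± 1.24, Rgs2 at 2.68 ± 1.18 and Rgs17 at 2.09 ± 1.42 CPM per kb, neighbours whose levels did not differ beyond their spread.

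Lower still were Rgs4 at 1.79 ± 3.05, Rgs3 at 1.11 ± 0.428 and Rgs20 at 0.977 ± 0.865 CPM per kb. Rgs11, an R7 gene, averaged 0.283 CPM per kb and Rgs5 averaged 0.249 CPM per kb. The R7 proteins, known from neurons and the retina, need the beta subunit Gnb5 for their stability. Gnb5 averaged 40.0 CPM in Ndr hilar, 28.7 CPM in WT hilar, 25.0 CPM in Ndr peripheral and 29.4 CPM in WT peripheral organoids, while Rgs11 was the only one of the 4 R7 genes that passed the filter.

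**Figure D3:**
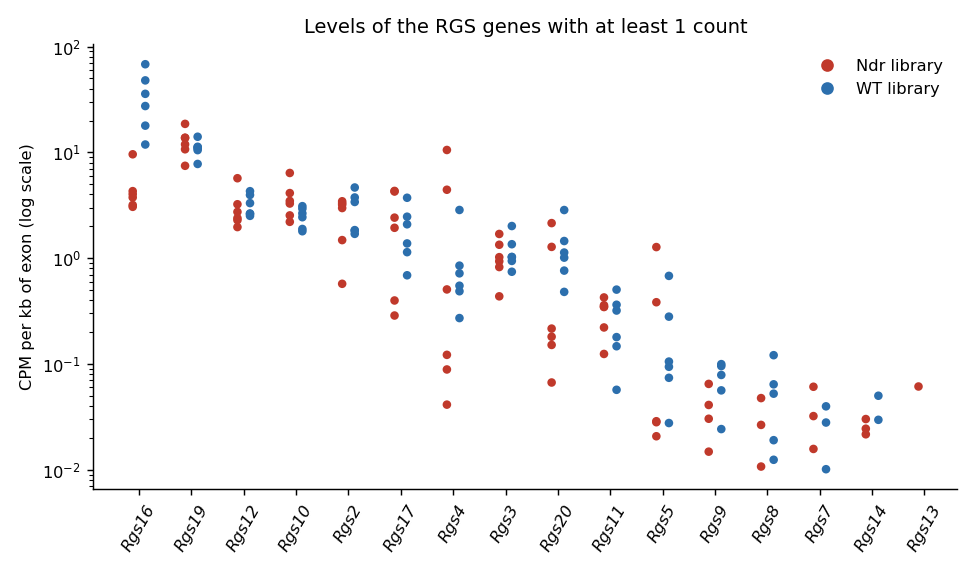
Levels of the 16 RGS genes with at least 1 count, as CPM per kb of exon on a log axis, with 1 point per library (red, Ndr; blue, WT; libraries without a count are not drawn). Over all libraries Rgs16 and Rgs19 have the highest means, 19.7 and 11.8 CPM per kb. The Rgs16 points divide by genotype, the contrast on which it was chosen. They lie below those of Rgs19 in Ndr libraries and above them in WT libraries of the same culture.

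In tests over all genes, edgeR called 0 of the 8 tested members at an adjusted p of 0.05 in each of 7 comparisons: genotype over mouse totals, genotype in hilar and in peripheral organoids, region in Ndr, in WT and in both genotypes, and the interaction of genotype and region. It called 0% of all genes in each of them as well. At an unadjusted p under 0.05 the share of all genes was 5.42% for genotype over mouse totals, 6.54% in hilar and 2.92% in peripheral organoids, and Rgs16 was the only member there. For region the share was 10.3% in Ndr, 0.506% in WT and 6.07% over both, and 3% for the interaction, with Rgs10 for region over both genotypes as the only member.

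Counted by library instead of by test, Rgs16 was the only member whose genotypes did not overlap in peripheral organoids (3.61% of all genes lay lower and 5.41% higher in Ndr), over mouse totals (5.78% lower, 5.49% higher) and over all 12 libraries (0.127% lower, 0.253% higher). In hilar organoids Rgs16 lay lower and Rgs10 higher in Ndr without overlap, beside 4.18% and 4.57% of all genes. In WT organoids no member separated the regions, as 2.6% of all genes did with the hilar cultures lower and 2.94% with them higher. Within WT mice, Rgs10 was higher in the hilar culture of all 3 mice, as were 10.3% of genes, and no member was lower in all 3, as were 9.35% of genes. No member had all Ndr mice moving one way between regions and all WT mice the other, as 1.31% of genes did. In Ndr organoids Rgs2 separated the regions with hilar cultures higher and Rgs3 with hilar cultures lower, beside the 7.49% and 7.93% of genes given above. Nothing is read from the place of Rgs16 in these counts, since it was chosen on genotype.

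Among the genotype comparisons DESeq2 called 0.735% of all genes over mouse totals, 0.281% in hilar and 0.0401% in peripheral organoids, and none of the 7 members other than Rgs16. Rgs16 itself passed in all 3, which its choice on this contrast makes no evidence. DESeq2 called no member by region, where it called 0.481% of all genes in Ndr, 0% in WT and 0.02% over both genotypes, or by interaction (0.0267%). For the 7 other members the edgeR adjusted p-values ran from 0.903 to 0.980 for genotype over mouse totals and from 0.750 to 0.956 in hilar organoids.

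By direction, 3 of these 7 members were higher and 4 lower in Ndr than in WT mouse totals, with a median log2 difference of -0.16, against -0.00 over all genes tested. In hilar organoids 4 were higher and 3 lower in Ndr, with a median of 0.42, against -0.00 over all genes. In peripheral organoids 3 were higher and 4 lower in Ndr, with a median of -0.03, against 0.03. For region in Ndr organoids, 4 were higher and 3 lower in hilar cultures, with a median of 0.47 against -0.01 over all genes. In none of these comparisons did all 7 lie on 1 side.

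**Figure D4:**
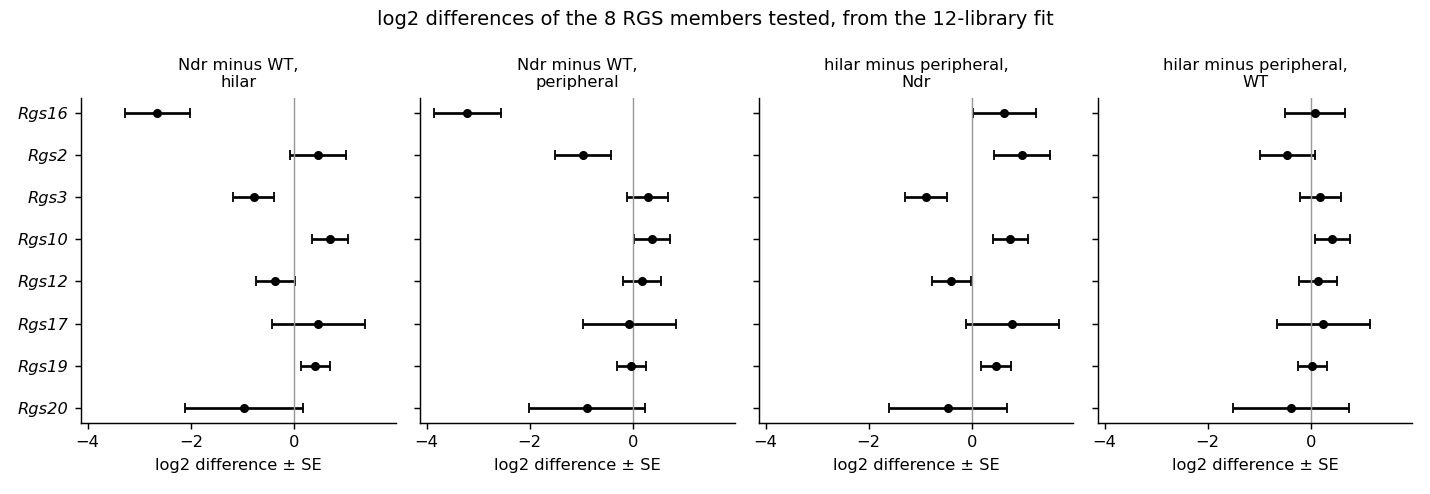
log2 differences of the 8 tested members from the fit over 12 libraries, with bars of 1 SE, for Ndr minus WT in hilar and in peripheral organoids and for hilar minus peripheral in Ndr and in WT organoids. Rgs16 lies at -2.65 and -3.21 between genotypes, and the other members lie between -0.98 and 0.98 in all 4 panels.

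Genes of the G proteins on which RGS proteins act were expressed in every group. Of 119 genes of G protein signalling (alpha, beta and gamma subunits, effectors, arrestins, chaperones, proteins with an RGS-like domain and receptors of bile duct cells), 69 were tested over mouse totals and 68 in the other comparisons. edgeR called 0 of them in any comparison. At an unadjusted p under 0.05 there were 7 over mouse totals, or 10.1% against 5.42% of all genes, 3 in hilar organoids (4.41% against 6.54%) and 4 in peripheral organoids (5.88% against 2.92%). For region there were 9 in Ndr organoids (13.2% against 10.3%), 0 in WT organoids (0% against 0.506%) and 8 over both (11.8% against 6.07%), and for the interaction 5 (7.35% against 3%). Their median log2 difference was -0.04 over mouse totals, Ndr minus WT, against -0.00 over all genes.

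Gnai2, an inhibitory alpha subunit gene, averaged 346 ± 15.7 CPM in Ndr hilar and 397 ± 8.46 CPM in WT hilar organoids, and 471 ± 96.8 CPM in Ndr peripheral and 410 ± 78.0 CPM in WT peripheral organoids (SD, n = 3 each). Of the Gq subunits, Gna11 averaged 84.8 ± 16.9 CPM in Ndr hilar and 96.6 ± 9.34 CPM in WT hilar organoids, and 122 ± 9.32 CPM in Ndr peripheral and 105 ± 6.85 CPM in WT peripheral organoids. Gnb1, a beta subunit, averaged 420 ± 23.8 CPM in Ndr hilar, 503 ± 48.8 CPM in WT hilar, 498 ± 50.9 CPM in Ndr peripheral and 484 ± 10.2 CPM in WT peripheral organoids. As ratios between group means, these levels differed by less than those of Rgs16. Since Rgs16 was chosen on its genotype difference, nothing is read from its larger ratio.

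Gnas, which encodes the stimulatory subunit, was counted at 9.53 to 12.4 CPM as group means; its locus carries 5 overlapping genes in the annotation, and how shared reads were treated is not given in the sources used here. The cyclase gene Adcy6 averaged 122 ± 51.5 CPM in Ndr hilar, 108 ± 28.1 CPM in WT hilar, 105 ± 15.3 CPM in Ndr peripheral and 116 ± 19.8 CPM in WT peripheral organoids. Among receptors, the protease receptor F2rl1 averaged 102 ± 42.5 CPM in Ndr hilar and 157 ± 53.0 CPM in WT hilar organoids, and 163 ± 38.4 CPM in Ndr peripheral and 210 ± 64.6 CPM in WT peripheral organoids. Sctr, the secretin receptor, had 2 counts in all libraries together.

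Adora2b had the smallest p of the pathway over mouse totals, Chrm3 had the smallest for region in Ndr organoids, and Gnai1 was the only Gi class gene under an unadjusted 0.05 over mouse totals; they were named after their values were seen. Adora2b, an adenosine receptor, averaged 0.885 ± 0.218 CPM in Ndr and 3.82 ± 2.06 CPM in WT mouse totals, with a log2 difference of -2.11 (SE 0.495, edgeR adjusted p = 0.658). Gnai1, another inhibitory subunit, averaged 17.1 ± 5.12 CPM in Ndr and 28.6 ± 1.23 CPM in WT mouse totals, with a log2 difference of -0.75 (SE 0.228, edgeR adjusted p = 0.869). Chrm3, the muscarinic receptor of duct cells, averaged 16.3 ± 1.81 CPM in Ndr hilar against 1.56 ± 1.09 CPM in Ndr peripheral organoids, a log2 difference of 3.37 (SE 0.819, edgeR adjusted p = 0.418). In WT organoids Chrm3 averaged 8.84 ± 6.72 CPM in hilar against 5.53 ± 3.70 CPM in peripheral cultures. None of these passed the threshold.

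The pattern of Rgs16 over the 12 libraries was matched most closely by 8 genes among 11832 tested genes of at least 5 CPM in mean, by Pearson's r of log2(CPM + 0.5). They were Cldn1, a tight junction protein gene that reached the 5 CPM through its WT levels and averaged 0.958 CPM in Ndr hilar and 1.54 CPM in Ndr peripheral organoids (r = 0.890), Ctsc, which encodes the protease cathepsin C (0.872), Tnc, an extracellular matrix gene (0.868), Zdhhc15, a palmitoyl transferase gene (0.862), the protease inhibitor gene Slpi (0.861), the membrane protein gene Gpm6b (0.857), Inhba, a subunit of activin (0.849), and Cxcl5, a chemokine gene (0.847). The 12 points share 6 mice, and these values describe these libraries only. All 8 had lower group means in Ndr than in WT organoids in both regions, which follows from their choice by likeness to Rgs16 and is no separate result.

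Tnc, for example, averaged 1.76 ± 2.20 CPM in Ndr hilar and 21.0 ± 17.4 CPM in WT hilar organoids, and 4.75 ± 2.02 CPM in Ndr peripheral and 47.0 ± 30.5 CPM in WT peripheral organoids (SD, n = 3 each). Like Cldn1, Tnc reached the mean of 5 CPM through its WT levels. Cxcl5 averaged 1772 ± 835 CPM in Ndr hilar and 4310 ± 2826 CPM in WT hilar organoids, and 1274 ± 493 CPM in Ndr peripheral and 3414 ± 807 CPM in WT peripheral organoids. With the 4 group means taken out, so that genotype and region no longer count, the genes closest to Rgs16 were others: Gm6054 (r = 0.955), Zfp120 (0.952), Npc2 (0.950), Gm14325 (0.946) and Gm2007 (0.943). Npc2 encodes a lysosomal cholesterol carrier; Zfp120 and Gm14325 belong to a zinc finger family with closely similar copies, so their counts are uncertain. Cldn1 had r = 0.895 on that measure.

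**Figure D5:**
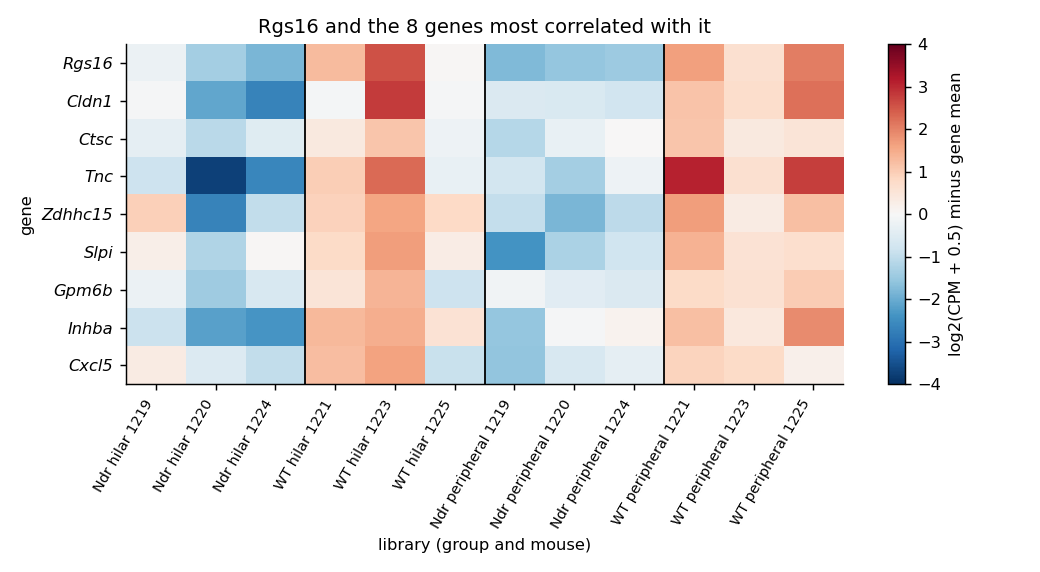
Rgs16 and the 8 genes whose log2(CPM + 0.5) had the highest Pearson's r with it, as the deviation from each gene's mean over 12 libraries (colour scale; columns are libraries by group and mouse, and black lines divide the groups). The Ndr columns are mostly blue (below the mean) and the WT columns mostly red, with r between 0.847 and 0.890.

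No other RGS gene had an r with Rgs16 as high as the genes named above as most like it. Those genes were picked as the highest of 11832, so nothing is read about the family from this. Over the 12 libraries the highest r was that of Rgs20, at 0.58 (Spearman's rho 0.45), and the lowest was that of Rgs10, at -0.36 (rho -0.39).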

How the data were processed

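The authors deposited raw counts of reads per gene. Per the submitters' processing notes, the build was GRCm39 and the counter featureCounts. A table of normalized values (signal) was deposited too, and those notes name DESeq2 1.34.0. Which aligner, gene annotation, strand option and rule for shared reads were used is not given in the sources at hand. In the deposited signal table only 18.3% to 22.7% of a library's values lay within 0.1% of the raw count divided by 1 factor, so it serves as an alternative only.

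The robust quasi-likelihood test of edgeR 4.0.16 (R 4.3.3) was run on counts after filterByExpr and TMM scaling, in 1 fit over 12 libraries with 4 group coefficients (15014 genes, 8 residual degrees of freedom) and 1 over 6 mouse totals (15401 genes, 4 residual degrees of freedom). Adjustment was by Benjamini-Hochberg over every tested gene, with 0.05 as the threshold. The script was tested on simulated counts. CPM, and log2 differences, are from edgeR; per-kb values use GENCODE M21 exon lengths (GRCm38), which also gave symbols, neighbours and overlaps. Alternatives were RLE scaling, no filter, DESeq2 1.42.0, limma-voom (limma 3.58.1), derivation date, the mouse as a block, the deposited signal as log2(value + 1) in limma, and each library or mouse left out.

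The members and lists were chosen with earlier results of these data known. Named genes are all members, tested RGS genes, the 2 most abundant of each list (a selection is printed) and the genes most like Rgs16; Adora2b, Gnai1, Chrm3 and Sctr were named outside that rule, after their values were seen. Hilar and peripheral cultures of 1 number come from the same mouse, which pairs them; the correlation of their deviations ran from -0.340 (mouse 1220) to 0.450 (mouse 1225). Each mouse gave 1 culture per region, so p-values of genotype measure the spread between mice and cultures together. Unless the mouse is named as a block, region and interaction values come from the fit without the pairing. The spread between mice is then left in their p-values.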

Additional observations from a re-analysis of the deposited data

How the results depend on the processing

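Counts of genes called moved with the tool. For genotype over mouse totals, where edgeR called 0 genes, there were 5 without a filter on low counts, 113 with DESeq2, 7 with derivation date as a factor, 7393 in the deposited normalized values and 2 with the mouse as a replicate block (limma-voom on 12 libraries). DESeq2 called 42 in hilar, 6 in peripheral organoids, 72 for region in Ndr, 3 for region over both genotypes and 4 for the interaction; the normalized values gave 1480, 92, 7, 3 and 2. Members called numbered 1 (Rgs16) over mouse totals without a filter, and 1 (Rgs16) with DESeq2 in each genotype comparison. In the normalized values 6 of the 8 tested members were called over mouse totals, beside 7393 of the 15401 genes tested. In hilar organoids 4 members were called, beside 1480 of 15014 genes. In peripheral organoids 1 (Rgs20) was called, beside 92 of 15014 genes. Nothing is read about the members from these counts. Why the normalized values gave more calls was not tested.

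Leaving out 1 mouse gave 0 to 4 genes over mouse totals and 0 to 1 members; the 1 was Rgs16 without mouse 1219 (edgeR adjusted p = 0.0183), no evidence since it was chosen on this contrast. Leaving out 1 library gave 0 to 2 genes in peripheral organoids and 0 to 7 for region in Ndr, the higher counts without the peripheral library of mouse 1219. The log2 difference of Rgs16 ranged from -3.19 to -2.74 over mouse totals, -3.28 to -1.80 in hilar and -3.54 to -2.88 in peripheral organoids. By region it ranged from 0.01 to 0.93 in Ndr, -0.78 to 0.50 in WT and -0.077 to 0.57 over both, and its interaction from -0.070 to 1.42. The lowest values came without the hilar library of WT mouse 1223 (both region effects that include WT) or of Ndr mouse 1219 (interaction). Its WT region value of 0.08 was -0.17 with limma-voom and -0.19 with the mouse as a replicate block; the cause was not tested.

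Of 861 alternative values of the 7 other members, 57 changed sign and 40 moved by more than 1 SD, of which 16 were without mouse 1219. With derivation date as a factor, the genotype value rests on Ndr mouse 1224 against WT mouse 1225. Rgs20 was then at -3.76 over mouse totals, which repeats the comparison within day 21 and is no separate evidence. Rgs2 was at -0.22 over mouse totals in the main fit and at 0.83 with that factor. In the normalized values Rgs20 was called in all 3 genotype comparisons. It was at -3.43 over mouse totals (limma adjusted p = 7.788e-05), -3.29 in hilar and -3.44 in peripheral organoids, the last with limma adjusted p = 0.007669. The same values called 7393 genes over mouse totals, 1480 in hilar and 92 in peripheral organoids. The call over mouse totals thus does not single out Rgs20. Its SE there was 0.074, against 0.997 in the raw counts, where mouse 1219 stood apart from the other Ndr mice. The cause of that smaller SE was not tested, and nothing is read from these calls. Rgs14, with 6 counts, is limited by depth.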
